A study of Homo sapiens with 12 samples.

Results

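The Notch pathway was followed through 10 genes across neural cultures grown from the human embryonic stem cell lines H9 and H1. They are the receptors NOTCH1, NOTCH2 and NOTCH3, the ligands DLL1, DLL3 and JAG1, and the nuclear effectors HES1, HES6, HEY1 and HEY2. All 10 members were matched by symbol among the 63925 gene identifiers of each count table. Reads were counted for 9 of them, and DLL1 was listed at 0 in all 12 libraries. Polyadenylated RNA came from 4 groups of 3 replicate cultures. The groups were H9 with dexamethasone, H9 with DMSO vehicle, H1 with dexamethasone and H1 with DMSO vehicle. Cultures of the same group are called sister cultures below, although whether they share a differentiation run is not stated. Dexamethasone, which is a synthetic glucocorticoid, was given at 1 µM, and both it and the vehicle acted for 6 h. All cultures shared 10 weeks of differentiation by dual SMAD inhibition from stem cells kept on mouse feeder cells, and all were maintained in neurobasal medium with B-27, ascorbic acid, cyclic AMP, BDNF and GDNF. The labels name neither single differentiation runs nor the flow cell of a library, so the line cannot be told apart from the differentiation run.

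The cultures are not pure neural progenitors, so each value is of a whole mixed culture. The progenitor filament gene VIM averaged 3340 CPM in H9 dexamethasone, 2892 in H9 vehicle, 3069 in H1 dexamethasone and 3204 in H1 vehicle cultures, where CPM are counts scaled to the TMM-adjusted library size. The radial glia and progenitor transcription factor gene PAX6 averaged 156, 158, 132 and 125 CPM in the same order of groups. DCX, a marker of young neurons, averaged 1493, 1207, 657 and 631 CPM in that order, and the astrocyte filament gene GFAP 173, 131, 140.1 and 147 CPM. SOX2, a defining progenitor gene, was listed at 0 in every library. In such bulk RNA, fewer cells of a type and less RNA per cell cannot be told apart.

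Notch signalling passes between touching cells. A ligand of the Delta or Jagged family on the sending cell pulls on a Notch receptor of its neighbour, the receptor is cut by an ADAM protease and by γ-secretase, and its freed intracellular part enters the nucleus. There it joins the DNA-binding protein RBPJ and Mastermind-like coactivators and turns on HES and HEY genes, whose products repress proneural genes. In the developing brain this keeps neighbours of a differentiating cell in the progenitor state, while proneural factors raise Delta ligands in the cell that goes on to become a neuron.

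The promoters of HES1 and HES6 are shown because these related genes differed in their call between the lines. HES1, a classical Notch target that holds progenitors undifferentiated, did not pass the test. HES6, a relative that in mouse counteracts HES1 and favours neuronal differentiation, was lower in H9. Each line gives the 250 bases before the annotated start, 5′ to 3′ on the strand of the gene, from RefSeq on GRCh38.p14. Capitals mark TGGGAA, the core of the motif that RBPJ binds.
HES1 (chr3:194135898-194136147, plus strand): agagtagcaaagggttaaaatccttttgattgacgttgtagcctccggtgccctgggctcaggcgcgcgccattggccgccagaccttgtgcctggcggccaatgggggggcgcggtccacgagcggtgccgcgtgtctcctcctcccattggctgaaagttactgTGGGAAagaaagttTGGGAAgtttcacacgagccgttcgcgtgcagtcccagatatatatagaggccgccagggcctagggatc
HES6 (chr2:238240039-238240288, minus strand): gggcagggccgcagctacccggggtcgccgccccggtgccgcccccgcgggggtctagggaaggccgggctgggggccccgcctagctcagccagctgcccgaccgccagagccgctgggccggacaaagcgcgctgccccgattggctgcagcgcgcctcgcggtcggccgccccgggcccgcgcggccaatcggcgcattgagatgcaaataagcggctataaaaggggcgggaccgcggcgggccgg
TGGGAA was searched on both strands of windows from 250 bases before to 50 bases after the start, 300 bases in all. In HES1 the matches began 84 and 70 bases before the start, and HES6 had none. HEY2 also had 2 matches, whereas NOTCH1, NOTCH2, NOTCH3 and JAG1 had none in their windows. The windows of HES6 and HEY2 lie inside the gene spans given below, so the bases before the upstream end of those spans were not searched. Thus 2 of the 7 members in the promoter table held the motif, all but DLL1, DLL3 and HEY1 being in that table. Over all 35116 promoters, 24.0% held it at least 1 time and 3.80% at least 2 times. A match is a description of the letters, not evidence of binding.

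Total counts per library ranged from 14751168 to 27505804. H9 vehicle culture 3 had the lowest total, and mitochondrial genes took 0.607% of its counts, where the other libraries had 2.91% to 5.64%. Its root mean square log2 distance from its sister cultures was 0.853. H9 vehicle cultures 1 and 2 stood at 0.511 and 0.481, measured from a mean that includes culture 3. The libraries of the other groups lay at 0.268 to 0.309. Several members stood apart in it as well: its NOTCH1 level was 2.04 times the mean of H9 vehicle cultures 1 and 2, NOTCH3 1.75 times, HES6 1.499 times, HES1 0.650 times and DLL3 0.582 times, while NOTCH2 was at 1.015 times and JAG1 at 0.952 times. Other listed genes stood farther apart: the progenitor marker NES was at 5.16 times the same mean and the pathway gene MIB2 at 3.47 times. Member results that rest on this library are given with and without it. The glucocorticoid target FKBP5 was at 28.2 ± 2.3 CPM in H9 dexamethasone against 4.42 ± 0.57 CPM in H9 vehicle cultures, and at 22.3 ± 3.1 CPM in H1 dexamethasone against 5.53 ± 0.57 CPM in H1 vehicle cultures (SD, n = 3 each). FKBP5 was called higher in both lines (H9: edgeR adjusted p = 1.24e-05, H1: edgeR adjusted p = 0.000210).

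The lines differed in most members. In both treatments JAG1 and HEY1 were higher in H9, NOTCH1, NOTCH3, DLL3 and HES6 were lower in H9, and NOTCH2, HES1 and HEY2 did not pass. All 9 counted members were tested, with edgeR's quasi-likelihood test over 17819 genes and a threshold of 0.05 on the Benjamini-Hochberg adjusted p, so 2 were called higher and 4 lower. The lines differed widely across all genes too: in the dexamethasone cultures 22.5% of genes were called higher and 21.2% lower in H9, and in the vehicle cultures 25.7% were called higher and 21.2% lower. Against that background, 2 of 9 members higher is close to the share for all genes, and 4 of 9 lower is above it. Without H9 vehicle culture 3, 4 of 9 were again lower, beside 32.8% of all genes with dexamethasone and 28.6% with vehicle. The members were chosen with earlier results of these data known, so this comparison is a description and not a test. The median log2 fold change of the 9 members, H9 minus H1, was −0.25 with dexamethasone and −0.30 with vehicle, against −0.01 and 0.03 for all genes tested. Log2 fold changes below are given with their SE, and 95% intervals use the t distribution on 8 residual degrees of freedom, or 7 without H9 vehicle culture 3.

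**Figure D1:**
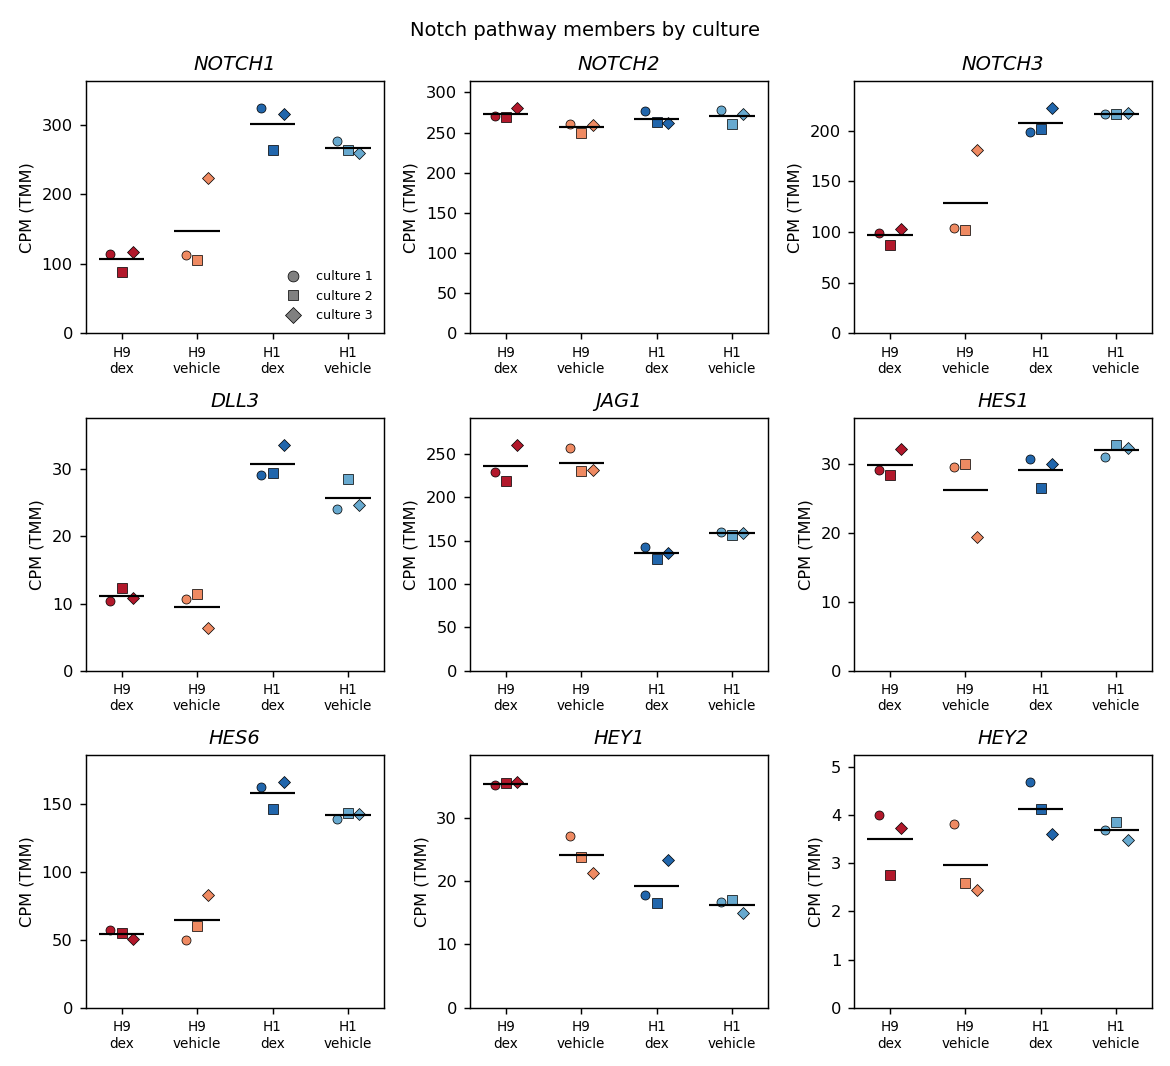
TMM-scaled CPM of the 9 counted members (vertical axes, from 0) in each culture of the 4 groups (horizontal axes), with a symbol for the culture number and a line at the group mean. NOTCH1, NOTCH3, DLL3 and HES6 lie lower in H9 and JAG1 higher, while H9 vehicle culture 3 (diamond) lies apart from its sisters for NOTCH1, NOTCH3, HES1, DLL3 and HES6.

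Among the receptors, NOTCH1 and NOTCH3 were lower in H9 and NOTCH2 stood at nearly the same level in every culture. NOTCH1, the receptor most studied in neural stem cells, lies at chr9:136494433-136545786 on the minus strand of GRCh38. Its level was 115, 88.5 and 116 CPM in the H9 dexamethasone cultures, against 324, 264 and 315 CPM in the H1 dexamethasone cultures. With vehicle it was 113, 106 and 223 CPM in H9 cultures, against 277, 264 and 259.8 CPM in H1 cultures. No H9 culture reached the lowest H1 culture, although H9 vehicle culture 3 came near. The log2 fold change of NOTCH1, H9 minus H1, was −1.50 ± 0.24 with dexamethasone (edgeR adjusted p = 0.000365), a 2.83-fold lower level, and −0.86 ± 0.24 with vehicle (edgeR adjusted p = 0.0112). Without H9 vehicle culture 3 the vehicle value was −1.29 ± 0.11 (edgeR adjusted p = 6.92e-08), and in a fit of the vehicle libraries alone it did not pass (edgeR adjusted p = 0.0629).

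NOTCH3, a receptor of neural progenitors that also defines pericytes and vascular smooth muscle, lies at chr19:15159038-15200981 on the minus strand. It measured 99.3, 87.6 and 103 CPM in H9 dexamethasone cultures, against 199, 201 and 222 CPM in H1 dexamethasone cultures. The vehicle cultures held 104, 102 and 181 CPM in H9, against 216, 217 and 217 CPM in H1. The H9 and H1 cultures did not overlap in either treatment, and the 3 H1 vehicle cultures had a coefficient of variation of 0.333%. NOTCH3 differed by −1.10 ± 0.19 in log2 with dexamethasone (edgeR adjusted p = 0.000502) and by −0.75 ± 0.18 with vehicle (edgeR adjusted p = 0.00566). The vehicle value was −1.07 ± 0.07 without H9 vehicle culture 3, and just missed the threshold in a fit of the vehicle libraries alone (edgeR adjusted p = 0.0502).

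NOTCH2, the receptor expressed in many tissues, lies at chr1:119911553-120069626 on the minus strand. It measured 270.3, 269 and 281 CPM in H9 dexamethasone cultures, against 277, 264 and 262 CPM in H1 dexamethasone cultures. The vehicle values were 261, 249.8 and 259 CPM in H9, against 278, 261 and 273 CPM in H1. The lines overlapped with dexamethasone, and with vehicle the highest H9 culture lay just under the lowest H1 culture. The coefficient of variation within a group was 2.29% to 3.19%. The log2 fold change of NOTCH2, H9 minus H1, was 0.03 (95% interval −0.15 to 0.21, edgeR adjusted p = 0.785) with dexamethasone and −0.08 (−0.26 to 0.10, edgeR adjusted p = 0.440) with vehicle. NOTCH2 has near-identical partial copies in the genome, and NOTCH2NLA and NOTCH2P1 were listed at 0, so how reads shared with them were counted is uncertain.

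Per kb of exon, the receptor RNA of H9 was therefore made up differently. NOTCH2 took 44.3% ± 2.6 of the summed per-kb level of the 3 receptors in H9 dexamethasone cultures, against 23.8% ± 1.3 in H1 dexamethasone cultures (SD, n = 3 each). In vehicle cultures the NOTCH2 share was 41.4%, 41.4% and 27.4% in H9, against 25.0%, 24.3% and 25.2% in H1. NOTCH1 took 27.8% ± 2.3 in H9 dexamethasone cultures, against 43.2% ± 2.4 in H1 dexamethasone cultures. The NOTCH3 share moved least, at 27.9% ± 0.4 in H9 dexamethasone against 33.0% ± 2.0 in H1 dexamethasone cultures. H9 vehicle culture 3 again stood apart, with a make-up nearer to that of the H1 cultures. These shares are a description of the levels above and were not tested by themselves. Their size depends on the length used, the union of all annotated exons of each gene.

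**Figure D2:**
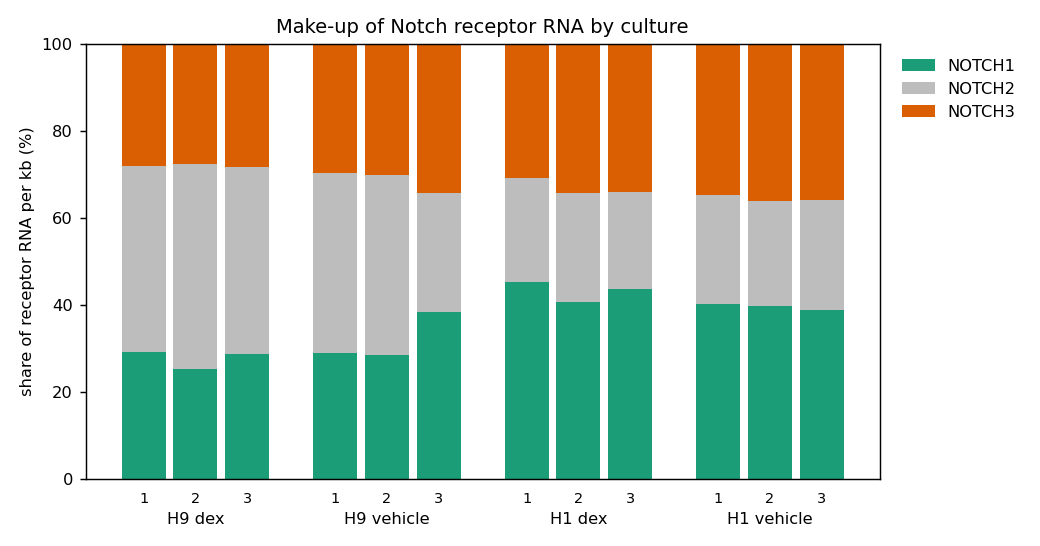
Share of NOTCH1, NOTCH2 and NOTCH3 in their summed CPM per kb of exon (vertical axis, percent) in each of the 12 cultures (bars, numbered by culture within each group). NOTCH2 takes 42.7% to 47.3% in H9 dexamethasone cultures and 22.4% to 25.2% in all H1 cultures, with H9 vehicle culture 3 at 27.4%.

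The ligands went in opposite directions. DLL3, an atypical Delta ligand that acts mainly within its own cell and is switched on by proneural factors, lies at chr19:39498895-39508481 on the plus strand. It measured 10.4, 12.2 and 10.8 CPM in H9 dexamethasone cultures, against 29.2, 29.4 and 33.6 CPM in H1 dexamethasone cultures. With vehicle it measured 10.6, 11.4 and 6.39 CPM in H9 cultures, against 24.0, 28.5 and 24.7 CPM in H1 cultures. Every H9 culture was below every H1 culture. The log2 fold change of DLL3, H9 minus H1, was −1.47 ± 0.18 with dexamethasone (edgeR adjusted p = 4.39e-05), 2.76-fold lower. With vehicle it was −1.43 ± 0.18 (edgeR adjusted p = 6.02e-05), 2.69-fold lower. Without H9 vehicle culture 3 the vehicle value was −1.23 ± 0.11 (edgeR adjusted p = 1.52e-07), 2.34-fold lower.

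JAG1, a Jagged ligand that activates Notch on neighbouring cells, lies at chr20:10637684-10673999 on the minus strand. It measured 229, 219 and 260.4 CPM in H9 dexamethasone cultures, against 143, 130 and 136 CPM in H1 dexamethasone cultures. The vehicle cultures held 257, 231 and 232 CPM in H9, against 161, 157 and 159 CPM in H1. All H9 cultures were above all H1 cultures, and H9 vehicle culture 3 did not stand apart. JAG1 was higher in H9 by 0.79 ± 0.09 in log2 with dexamethasone (edgeR adjusted p = 3.77e-05) and by 0.59 ± 0.09 with vehicle (edgeR adjusted p = 0.000326). A gene antisense to JAG1 held 569 reads in all against 54154 for JAG1. Of the summed per-kb level of DLL3 and JAG1, DLL3 made up 14.4% ± 1.9 in H9 dexamethasone against 44.4% ± 2.3 in H1 dexamethasone cultures. With vehicle the DLL3 share was 12.2% ± 3.0 in H9 against 36.5% ± 2.4 in H1 cultures. By culture it was 12.8%, 14.9% and 8.91% in H9 vehicle, the last being culture 3.

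DLL1, the Delta ligand that presents the signal from newborn neurons, lies at chr6:170282206-170306565 on the minus strand and was listed at 0 throughout. The zero is not read as absence. In all, 2461 of 19835 protein coding genes were listed at 0 in every library, SOX2 and the Notch effector HES5 among them. Of the 6 nearest neighbours examined for HES5, PANK4, TNFRSF14, PRXL2B and MMEL1 were also listed at 0, and PLCH2 and TTC34 held 78 and 45 reads. Of the 6 genes nearest to DLL1, FAM120B, which overlaps it on the other strand, held 536 reads, and PSMB1, TBP and PDCD2 held 30687, 7867 and 16436. The farthest, ERMARD and DYNLT2, at 500622 and 530619 bases, were listed at 0.

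Of the effectors, HES6 was lower in H9, HEY1 was higher, and HES1 and HEY2 did not pass. HES6, whose searched window without the motif is shown above, is encoded at chr2:238238267-238240662 on the minus strand. It measured 57.0, 54.8 and 50.6 CPM in H9 dexamethasone cultures, against 162, 146 and 166 CPM in H1 dexamethasone cultures. The vehicle cultures held 49.95, 60.4 and 82.7 CPM in H9, against 139, 143 and 143 CPM in H1. The lines did not overlap in either treatment. The log2 fold change of HES6, H9 minus H1, was −1.55 ± 0.15 with dexamethasone (edgeR adjusted p = 8.47e-06), 2.92-fold lower, and −1.14 ± 0.15 with vehicle (edgeR adjusted p = 8.93e-05), or −1.36 ± 0.09 without H9 vehicle culture 3.

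HES1 lies at chr3:194136145-194138732 on the plus strand. It measured 29.2, 28.4 and 32.2 CPM in H9 dexamethasone cultures, against 30.8, 26.6 and 30.0 CPM in H1 dexamethasone cultures. The vehicle values were 29.6, 30.1 and 19.4 CPM in H9, against 31.1, 32.8 and 32.4 CPM in H1. The lines overlapped with dexamethasone, and with vehicle all H9 cultures were below all H1 cultures, H9 vehicle culture 3 by the most. The log2 fold change of HES1, H9 minus H1, was 0.04 with dexamethasone (95% interval −0.30 to 0.38, edgeR adjusted p = 0.850) and −0.28 with vehicle (−0.62 to 0.06, edgeR adjusted p = 0.136), and the vehicle value was −0.11 (−0.31 to 0.09) without H9 vehicle culture 3.

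HEY1 and HEY2, repressors of the Hairy-related family that Notch switches on, differed from each other. HEY1 lies at chr8:79764010-79767863 on the minus strand. It measured 35.1, 35.5 and 35.6 CPM in H9 dexamethasone cultures, against 17.9, 16.5 and 23.4 CPM in H1 dexamethasone cultures. With vehicle it measured 27.1, 23.8 and 21.2 CPM in H9 cultures, against 16.7, 16.9 and 14.9 CPM in H1 cultures. Within each treatment all H9 cultures were above all H1 cultures. HEY1 was higher in H9 by 0.88 ± 0.14 in log2 with dexamethasone (edgeR adjusted p = 0.000292) and by 0.575 ± 0.14 with vehicle (edgeR adjusted p = 0.00508).

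HEY2, at chr6:125747664-125761269 on the plus strand, was the scarcest counted member. It measured 3.998, 2.76 and 3.72 CPM in H9 dexamethasone cultures against 4.67, 4.13 and 3.59 CPM in H1 dexamethasone cultures, and 3.81, 2.59 and 2.45 CPM in H9 vehicle against 3.69, 3.86 and 3.48 CPM in H1 vehicle cultures. The lines overlapped in both treatments. Its log2 fold change, H9 minus H1, was −0.24 with dexamethasone (95% interval −0.71 to 0.22, edgeR adjusted p = 0.354) and −0.30 with vehicle (−0.78 to 0.17, edgeR adjusted p = 0.246). Leaving out H9 vehicle culture 1 alone brought the vehicle value to −0.57 (edgeR adjusted p = 0.0427). The antisense gene HEY2-AS1 held 129 reads in all against 1024 for HEY2, and without a stated strand setting reads of such pairs cannot be told apart.

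**Figure D3:**
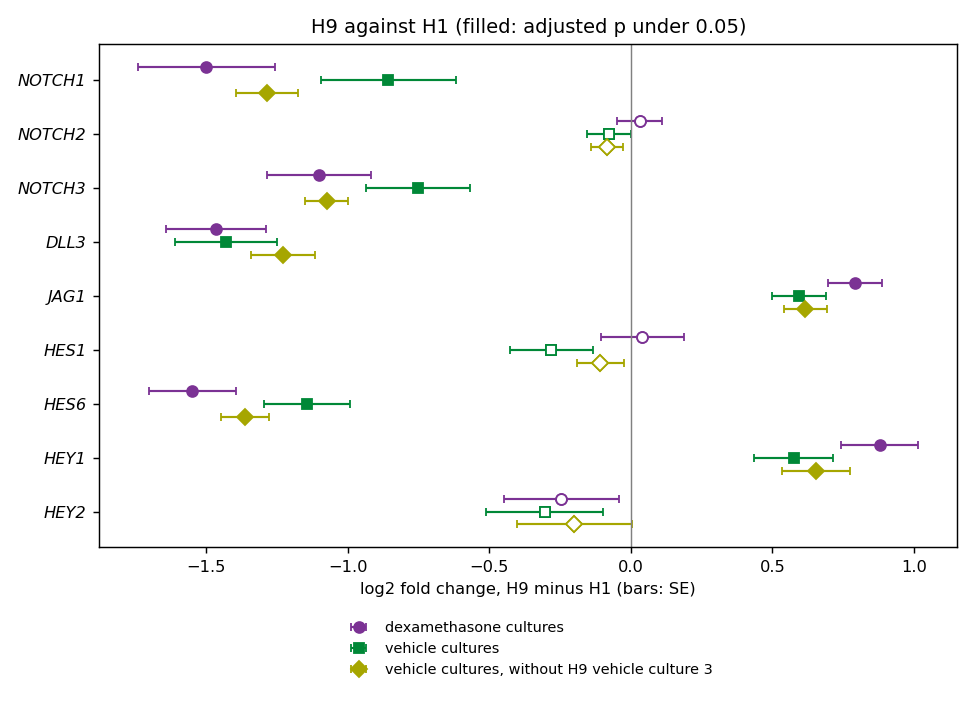
Log2 fold change, H9 minus H1, of the 9 counted members (horizontal axis, with bars of 1 SE) for dexamethasone cultures, vehicle cultures and vehicle cultures without H9 vehicle culture 3, with filled symbols for adjusted p under 0.05. NOTCH1, NOTCH3, DLL3 and HES6 lie left of 0 and JAG1 and HEY1 right of it in all 3, and NOTCH2, HES1 and HEY2 are open.

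Levels of different members were compared per kb of exon. The length used is the union of all annotated exons of a gene, so ranks that lie close depend on that choice. HES6 was first in every group, at 26.6 ± 1.6 CPM per kb in H9 dexamethasone, 31.6 ± 8.2 in H9 vehicle, 77.7 ± 5.1 in H1 dexamethasone and 69.6 ± 1.1 in H1 vehicle cultures (SD, n = 3 each), and HEY2 was last at 1.27, 1.08, 1.51 and 1.34 CPM per kb in the same order. In H9 the next member was JAG1, at 25.4 ± 2.3 CPM per kb with dexamethasone and 25.8 ± 1.6 with vehicle, and its cultures overlapped those of HES6. The second place in H1 was held by NOTCH1, at 29.0 ± 3.1 CPM per kb with dexamethasone and 25.7 ± 0.9 with vehicle, without overlap with HES6 above or NOTCH3 below. In H9 dexamethasone cultures NOTCH2 and HES1 came after JAG1, at 16.3 and 14.5 CPM per kb and without overlap, and then HEY1, NOTCH3 and NOTCH1 at 10.95, 10.3 and 10.3 CPM per kb with overlapping cultures. HES1 overlapped NOTCH2 in H1 vehicle and JAG1 in H1 dexamethasone cultures. DLL3 stood just above HEY2 in H9, and in H1 it stood above HEY1 without overlap.

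Markers of several cell types moved with the line. Of all genes, 22.5% were called higher and 21.2% lower in H9 with dexamethasone, and 25.7% and 21.2% with vehicle. Marker counts here and in the next paragraph stand beside these shares. Of the 7 tested markers of proneural and intermediate progenitor cells, 6 were lower and 1 higher in H9 in both treatments, and the list summed to 26.9 to 34.8 CPM in H9 dexamethasone, 22.4 to 31.0 in H9 vehicle, 125 to 145 in H1 dexamethasone and 118 to 125 in H1 vehicle cultures. NEUROG2, a proneural factor, was lower, with a log2 fold change of −3.86 ± 0.24 with dexamethasone and −3.65 ± 0.24 with vehicle. NEUROD1 of that list was listed at 0. All 10 markers of dividing cells were lower in H9 in both treatments, with sums of 206 to 235 CPM in H9 dexamethasone, 153 to 219 in H9 vehicle, 753 to 792 in H1 dexamethasone and 703 to 775 in H1 vehicle cultures. These lists moved in the same direction as NOTCH1, NOTCH3, DLL3 and HES6, and their part in those differences was not tested.

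Of 14 tested neural progenitor markers, 4 were higher and 4 lower in H9 with dexamethasone, and 3 higher and 5 lower with vehicle. Leaving out H9 vehicle culture 3 gave 5 higher and 5 lower with dexamethasone, and 4 higher and 7 lower with vehicle. In that fit all genes gave 31.9% higher and 32.8% lower with dexamethasone, and 30.1% and 28.6% with vehicle. Of 9 neuron markers, 5 were higher and 0 lower with dexamethasone, and 4 higher and 1 lower with vehicle; astrocyte markers had 3 of 6 and 2 of 6 higher. The mesenchymal list summed to 203 to 234 CPM in H9 dexamethasone and 215 to 352 in H9 vehicle, against 1431 to 3035 in H1 dexamethasone and 1801 to 3243 in H1 vehicle cultures, with 2 of 8 markers higher and 4 lower with dexamethasone, and 1 higher and 4 lower with vehicle. Markers of pericytes and smooth muscle, cells that also carry NOTCH3, summed to 451 to 602 CPM in H9 dexamethasone, 445 to 533 in H9 vehicle, 589 to 765 in H1 dexamethasone and 758 to 848 in H1 vehicle cultures. Of the 7 tested of them, 2 were higher and 2 lower in H9 with dexamethasone, and 2 higher and 3 lower with vehicle. The endothelial list summed to 18.1 to 21.4, 14.7 to 18.6, 26.5 to 35.9 and 22.9 to 29.3 CPM in the same order of groups. The choroid plexus list summed to 28.9 to 146, 20.1 to 114, 9.12 to 22.9 and 7.97 to 18.7 CPM in that order. The pluripotent list reached at most 5.39 CPM in any culture, with POU5F1 listed at 0. The part of these cells in the member results was not tested.

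Beyond the members, 54 other genes of the pathway were listed, of which HES5 and the receptor NOTCH4 were at 0 and 49 were tested. HES3, MAML1 and PSENEN held only 20, 8 and 26 reads in all and were not tested. With dexamethasone 10 were called higher and 17 lower in H9, and with vehicle 17 higher and 13 lower. All genes gave 22.5% higher and 21.2% lower with dexamethasone, and 25.7% higher and 21.2% lower with vehicle. Counts by role below cover few genes each and stand beside the same shares. Without H9 vehicle culture 3 the counts were 17 higher and 19 lower with dexamethasone and 20 higher and 18 lower with vehicle. The shares of all genes grew as well in that fit, to 31.9% higher and 32.8% lower with dexamethasone and to 30.1% higher and 28.6% lower with vehicle. The median log2 fold change of the 49, H9 minus H1, was 0.05 with dexamethasone and −0.06 with vehicle.

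Genes of the signal-sending side included DLK1, a non-canonical Delta-like ligand, at 176, 233 and 197 CPM in H9 dexamethasone against 95.7, 111 and 157 CPM in H1 dexamethasone cultures. DLK1 was higher in H9 by 0.73 ± 0.18 in log2 with dexamethasone (edgeR adjusted p = 0.00515) and by 0.59 ± 0.17 with vehicle (edgeR adjusted p = 0.0162), as JAG1 was. JAG2 was at 0.53 ± 0.31 with dexamethasone (edgeR adjusted p = 0.186) and was called higher with vehicle, at 1.43 ± 0.31 (edgeR adjusted p = 0.00270), its level of 71.9 CPM in H9 vehicle culture 3 lying far above the 24.9 and 30.1 CPM of its sisters. Without that culture JAG2 was called in both, at 0.53 ± 0.10 with dexamethasone and 0.82 ± 0.12 with vehicle. DLL4, a ligand of vessels and neural cells, was not called, at −0.08 ± 0.28 with dexamethasone and 0.07 ± 0.29 with vehicle. Of the ubiquitin ligases that make ligands pull on the receptor, NEURL1 was higher in H9 by 1.09 ± 0.17 with dexamethasone and 1.64 ± 0.18 with vehicle, and MIB1 was lower, at −0.43 ± 0.10 and −0.63 ± 0.10.

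Of 5 genes that attach or extend sugars on the receptor, 4 were lower in H9 in both treatments, where 21.2% of all genes were lower in each. MFNG, a Fringe enzyme that tunes which ligand a receptor answers, measured 0.740, 0.585 and 0.614 CPM in H9 dexamethasone against 6.30, 4.33 and 4.81 CPM in H1 dexamethasone cultures. The change was the largest of this role, −2.99 ± 0.31 in log2 with dexamethasone (edgeR adjusted p = 1.31e-05) and −2.45 ± 0.31 with vehicle (edgeR adjusted p = 6.26e-05). Its relative LFNG was lower, at −0.56 ± 0.15 with dexamethasone (edgeR adjusted p = 0.00936) and −0.39 ± 0.15 with vehicle (edgeR adjusted p = 0.0475), and RFNG was at 0.12 ± 0.11 with dexamethasone, not called, and higher with vehicle, at 0.41 ± 0.11. Among 7 tested genes of receptor cleavage, 2 were higher and 1 lower with dexamethasone, and 2 higher and 2 lower with vehicle. PSEN2, a catalytic γ-secretase gene, was higher by 0.62 ± 0.12 with dexamethasone and 0.77 ± 0.12 with vehicle, and the protease gene ADAM10 was lower, at −0.43 ± 0.12 and −0.72 ± 0.12.

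In the nucleus, RBPJ, the DNA-binding partner of cleaved Notch, was lower in H9. It measured 135, 149 and 134 CPM in H9 dexamethasone cultures, against 204, 232 and 207 CPM in H1 dexamethasone cultures, and 132, 112 and 94.5 CPM in H9 vehicle, against 219, 230.1 and 238 CPM in H1 vehicle cultures. All H9 cultures were below all H1 cultures. The log2 fold change of RBPJ was −0.62 ± 0.12 with dexamethasone (edgeR adjusted p = 0.00133) and −1.02 ± 0.12 with vehicle (edgeR adjusted p = 3.87e-05). The acetyltransferase KAT2B was higher by 1.35 ± 0.16 with dexamethasone and 1.10 ± 0.16 with vehicle. Of 9 corepressor genes, 1 was higher and 4 lower with dexamethasone, and 2 higher and 2 lower with vehicle. The Groucho family gene TLE4 was lower in both, at −0.87 ± 0.11 and −0.93 ± 0.11, and TLE2 was at 0.50 ± 0.24 with dexamethasone, not called, and higher with vehicle, at 1.36 ± 0.24. Without H9 vehicle culture 3, TLE2 was called in both, at 0.50 ± 0.15 and 1.06 ± 0.18.

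Receptor turnover genes counted 2 higher and 2 lower of 8 with dexamethasone, and 3 higher and 1 lower with vehicle. The ubiquitin ligase gene ITCH was lower in both, at −0.35 ± 0.10 and −0.52 ± 0.10, and DTX1, a Deltex gene, was at 0.44 ± 0.21 with dexamethasone, not called, and higher with vehicle, at 1.23 ± 0.21. Without H9 vehicle culture 3, DTX1 was called in both, at 0.44 ± 0.07 and 0.84 ± 0.07. Among 5 tested effectors beyond the members, NRARP, a direct Notch target that feeds back on the pathway, measured 3.36, 3.43 and 2.88 CPM in H9 dexamethasone against 9.77, 9.61 and 9.34 CPM in H1 dexamethasone cultures. NRARP was lower in H9, with a log2 fold change of −1.57 ± 0.14 with dexamethasone (edgeR adjusted p = 5.10e-06) and −1.43 ± 0.15 with vehicle (edgeR adjusted p = 1.29e-05). HES7, known as an oscillating gene of somite segmentation in mouse, was higher by 1.97 ± 0.29 and 1.85 ± 0.30 at low levels, 1.93 CPM in H9 dexamethasone against 0.486 CPM in H1 dexamethasone and 1.64 CPM in H9 vehicle against 0.440 CPM in H1 vehicle cultures. HEYL, the third Hairy-related effector, was lower with dexamethasone, at −2.28 ± 0.60 (edgeR adjusted p = 0.00917), and not called with vehicle, at −1.08 ± 0.66, the dexamethasone value resting on 14 reads in the H9 dexamethasone cultures against 75 in the H1 dexamethasone cultures.

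**Figure D4:**
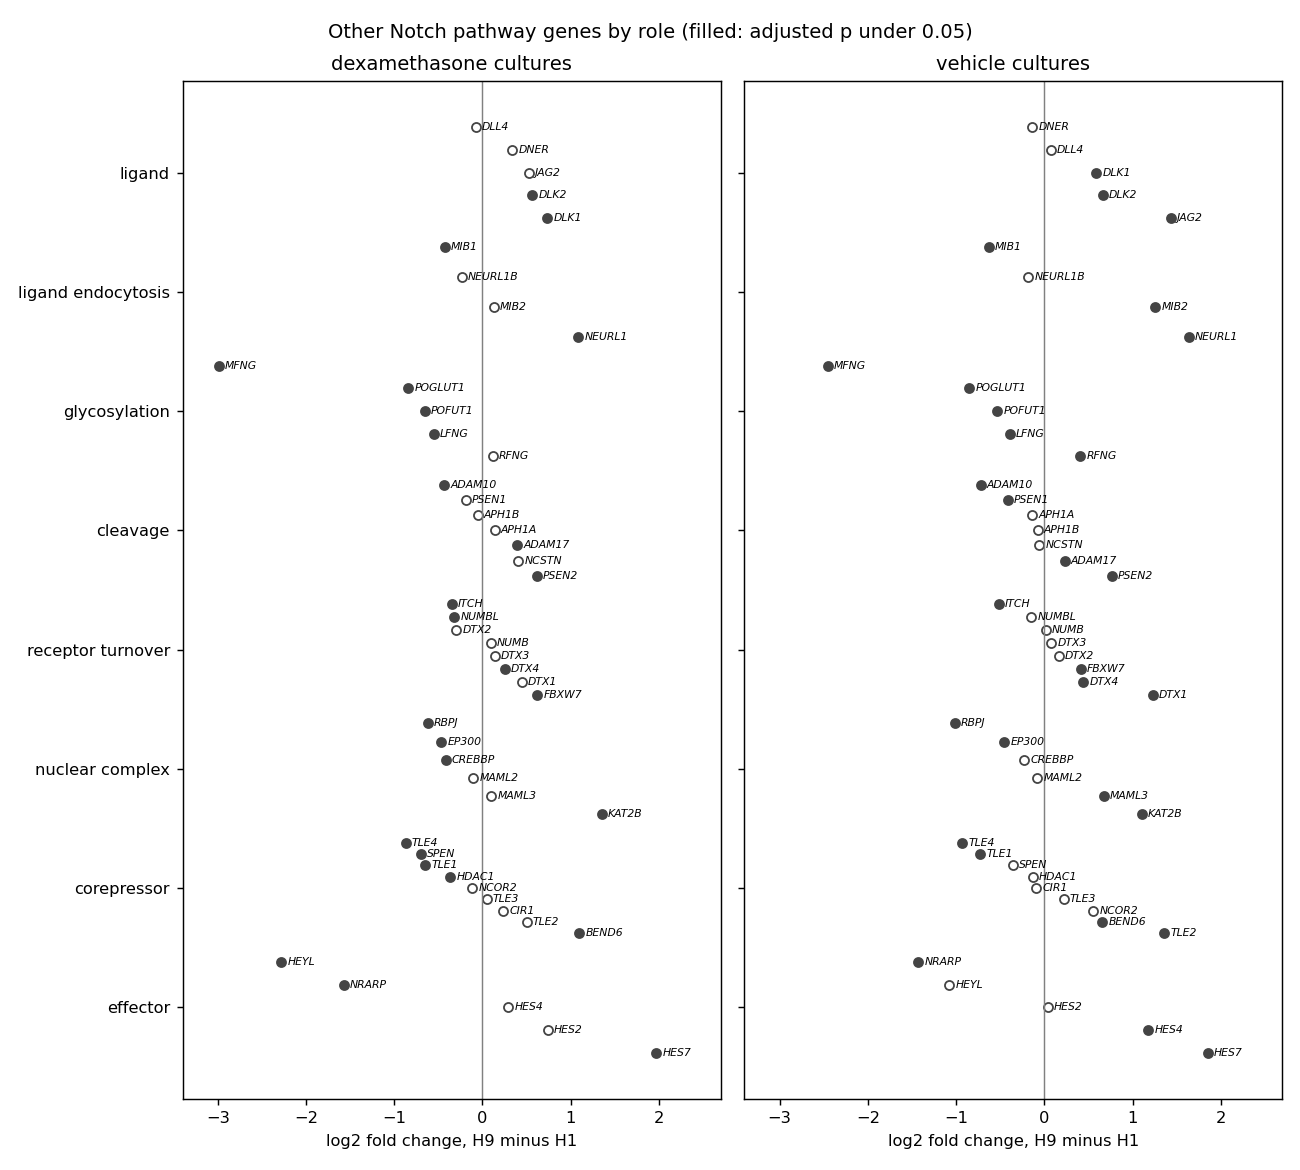
Log2 fold change, H9 minus H1, of the 49 other tested pathway genes by role, in dexamethasone cultures (left) and vehicle cultures (right), filled where adjusted p was under 0.05. MFNG and NRARP lie far to the left and HES7, NEURL1 and KAT2B to the right in both panels.

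Dexamethasone changed no member past the threshold in either line. With edgeR, 0 of 9 members were called in H9 and 0 of 9 in H1, where all genes gave 12 calls in H9, 0.0673%, and 9 in H1, 0.0505%. At an unadjusted p under 0.05 were 2 members in H9, HEY1 and NOTCH3, and 1 in H1, JAG1, where all genes gave 16.3% in H9 and 2.95% in H1. The groups share an estimate of the spread, so H9 vehicle culture 3 also bears on the H1 tests. Leaving it out gave 1 member in H9, HEY1, and 4 in H1, JAG1, DLL3, HEY1 and HES6, with no adjusted call. All genes then gave 2010 of 18098 in H9 and 1817 of 18098 in H1. DESeq2 called HEY1 in H9 and no member in H1, and limma-voom called none. Over all 17819 genes DESeq2 called 166 in H9 and 32 in H1, and limma-voom 12 and 8. Without H9 vehicle culture 3 the 12 calls over all genes in H9 became 53, 0.293%, and leaving out dexamethasone culture 2 or 3 of H9 gave 6 or 7. The 9 calls in H1 became 59, 0.326%, without H9 vehicle culture 3 and 3 to 5 without any single H1 library.

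HEY1 showed the largest treatment difference among members. The 35.1, 35.5 and 35.6 CPM of the H9 dexamethasone cultures were all above the 27.1, 23.8 and 21.2 CPM of the H9 vehicle cultures. Its log2 fold change in H9 was 0.56 ± 0.14 (95% interval 0.24 to 0.87, unadjusted p = 0.00158, edgeR adjusted p = 0.288) and 0.48 ± 0.12 without H9 vehicle culture 3 (edgeR adjusted p = 0.111), and DESeq2 gave an adjusted p of 0.0206. In H1 the dexamethasone cultures, at 17.9, 16.5 and 23.4 CPM, overlapped the vehicle cultures, at 16.7, 16.9 and 14.9 CPM, with a log2 fold change of 0.25 ± 0.14 (95% interval −0.07 to 0.57, edgeR adjusted p = 1). The difference of these effects, H9 minus H1, was 0.30 ± 0.19 (edgeR adjusted p = 0.554).

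The other members moved less, or moved with a single library. In H9, NOTCH1 was at −0.47 ± 0.24 and NOTCH3 at −0.41 ± 0.18 in log2, and without H9 vehicle culture 3 these became −0.04 ± 0.11 and −0.09 ± 0.07. HES6 in H9 was at −0.25 ± 0.15, and at −0.03 ± 0.08 without that culture. In H1, JAG1 was lower in every dexamethasone culture than in any vehicle culture, with a log2 fold change of −0.22 ± 0.09 (95% interval −0.44 to −0.004, unadjusted p = 0.0371, edgeR adjusted p = 1). With H9 vehicle culture 3 left out, JAG1 in H1 was at −0.22 ± 0.07 (edgeR adjusted p = 0.230). In that fit DLL3 in H1 was at 0.255 ± 0.09 (edgeR adjusted p = 0.313) and HES6 at 0.16 ± 0.07 (edgeR adjusted p = 0.472). HES1 gave intervals of −0.16 to 0.52 in H9 and −0.48 to 0.20 in H1, and HEY2 of −0.25 to 0.71 and −0.29 to 0.63. Leaving out H9 vehicle culture 3 narrowed the HES1 intervals to −0.19 to 0.21 in H9 and −0.32 to 0.04 in H1. Those of HEY2 were then −0.36 to 0.60 in H9 and −0.245 to 0.58 in H1. True changes anywhere inside the intervals of a fit remain compatible with its libraries.

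Cultures of the 2 treatments did not overlap for HEY1 and NOTCH2 in H9, both higher with dexamethasone. In H1 they did not overlap for DLL3 and HES6, both higher, and for JAG1 and HES1, both lower. Over all genes tested, 9.76% did not overlap in the higher and 11.6% in the lower direction in H9, and 7.15% and 6.98% in H1. For the difference of the effects between lines, edgeR called 0 of 17819 genes, 0.0%, with 1329, 7.46%, at an unadjusted p under 0.05 and 0 calls by DESeq2 and by limma-voom. Of the 9 members 0 reached an unadjusted p under 0.05 for that difference, the values running from −0.64 ± 0.33 for NOTCH1 to 0.32 ± 0.21 for HES1 in log2. With H9 vehicle culture 3 left out, NOTCH1 was at −0.21 ± 0.14 and HES1 at 0.15 ± 0.11. The values then ran from −0.235 ± 0.15 for DLL3 to 0.22 ± 0.16 for HEY1, again with 0 members under that p.

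Among the 49 other pathway genes edgeR called 0 for dexamethasone in H9 and 0 in H1, with 11 in H9 and 3 in H1 at an unadjusted p under 0.05, beside the 16.3% and 2.95% of all genes. Leaving out H9 vehicle culture 3 gave 5 in H9 and 13 in H1, beside 2010 and 1817 of 18098 genes. TLE1, a Groucho family corepressor, is named after its values were seen. Its H9 log2 fold change was 0.31 ± 0.09 (edgeR adjusted p = 0.299), and 0.39 ± 0.07 without H9 vehicle culture 3 (edgeR adjusted p = 0.0190). DESeq2 called TLE1 in H9 with an adjusted p of 0.0156, among 166 of 17819 genes. DTX1 in H1 passed only without H9 vehicle culture 3, at 0.33 ± 0.07 (edgeR adjusted p = 0.0487). The edgeR fit without that culture called 53 of 18098 genes, 0.293%, in H9 and 59, 0.326%, in H1.

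**Figure D5:**
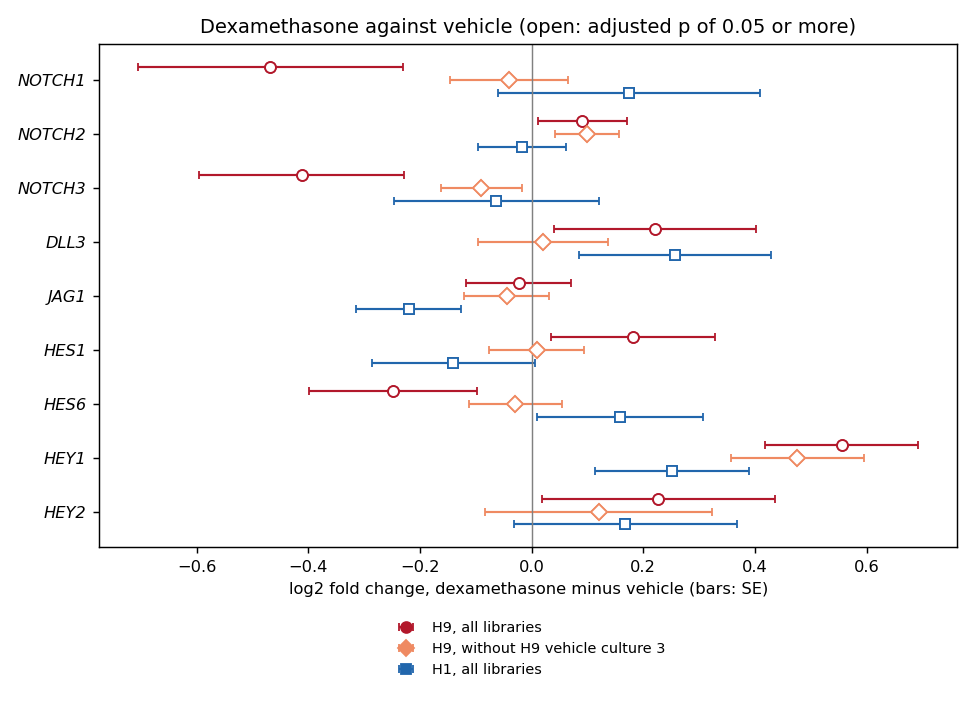
Log2 fold change, dexamethasone minus vehicle, of the 9 counted members (horizontal axis, with bars of 1 SE) in H9, in H9 without H9 vehicle culture 3, and in H1, with open symbols because no adjusted p was under 0.05. HEY1 in H9 is farthest from 0, at 0.56, and the NOTCH1 and NOTCH3 values in H9 move to near 0 without the 1 vehicle culture.

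For each member the gene with the most similar pattern was sought among 13966 genes with a mean of at least 1 CPM outside the lists, by the smallest root mean square difference of centred log2 CPM over the 12 libraries. It was BAHCC1 for NOTCH1 (0.0936), SPAG9 for NOTCH2 (0.0478), EPHB4 for NOTCH3 (0.0656), TMPO for DLL3 (0.0988), TMEM167B-DT for JAG1 (0.0720), SUPV3L1 for HES1 (0.0570), CBX2 for HES6 (0.0851), ZFP36L2 for HEY1 (0.130) and LYPD6 for HEY2 (0.0835). For HEY1 the likeness was the least close of the 9. The 12 libraries share lines, sister cultures and the deviation of H9 vehicle culture 3, so closeness describes these libraries and no more.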

How the data were processed

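Polyadenylated RNA of 12 cultures was sequenced on an Illumina NextSeq, per the labels' protocols. The deposited values are raw read counts per gene, whole numbers and not normalized, 1 table per library. Reads were handled with STAR 2.5.3a and HTSeq on hg38 and GRCh38.p10, per the submitters' processing notes. Neither the annotation release nor the strand setting is given in the sources used here. Coordinates and union exon lengths came from GENCODE 29 on GRCh38.

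The filterByExpr function of edgeR 4.0.16 kept 17819 genes, and TMM scaled the libraries. Testing used the quasi-likelihood F-test of edgeR with 1 mean per group over all 12 libraries, Benjamini-Hochberg adjustment over all genes tested and a threshold of 0.05. The SE was taken as log2 fold change over √F. Each group holds 3 sister cultures, whose differentiation runs are not stated. The p-values reflect only how such cultures spread, and no pair of sister cultures agreed within sampling noise. Levels are mean ± SD of TMM-scaled CPM. Likeness used log2(CPM + 0.5).

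Members and gene lists were chosen with earlier results of these data known. Named were all members, 7 further pathway genes chosen by name, the largest call each way in each role in the vehicle comparison of lines, and the most similar gene of each member. Alternatives were RLE size factors, library sizes without mitochondrial genes and the 20 most abundant genes, DESeq2 1.42.0, limma-voom (limma 3.58.1), no filter on low counts, a minimum CPM of 1 in 3 or more libraries, culture number as a replicate block, the libraries of a contrast alone, and each library left out in turn. R 4.3.3, Python 3.11.15 and matplotlib 3.10.9 were used.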

Additional observations from a re-analysis of the deposited data

How the results depend on the processing

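The members called between lines kept their direction and their side of the threshold in all 20 alternatives, except that NOTCH1 (adjusted p = 0.0629) and NOTCH3 (0.0502) with vehicle missed it in the fit of the vehicle libraries alone and HEY2 with vehicle passed without H9 vehicle culture 1. For dexamethasone, HEY1 in H9 ran from 0.48 to 0.69 in log2 and passed with DESeq2 alone. Values near 0 changed sign: without the filter on low counts JAG1 with dexamethasone in H9 was 0.028 and the difference of effects for DLL3 was 0.003. With 1 library left out, the lowest and highest values were −0.022 and 0.080 for HES1 between lines with dexamethasone, −0.043 and 0.003 for NOTCH2 with dexamethasone in H1, −0.096 and 0.069 for JAG1 with dexamethasone in H9, and, for the difference of effects, −0.235 and 0.117 for DLL3 and −0.047 and 0.327 for HEY2. The cause was not tested.

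Counts over all genes moved more. Genes called between lines numbered 7777 with dexamethasone and 8350 with vehicle, or 11002 and 5284 in fits of the libraries of that treatment alone. For dexamethasone in H9 there were 12, against 166 with DESeq2, 24 without the filter and 2 in the fit of H9 alone, and in H1 there were 9, against 32 with DESeq2, 50 in the fit of H1 alone and 5 with the replicate block. With 1 library left out the counts ran from 6106 to 11697 between lines with dexamethasone and from 6711 to 10608 with vehicle, from 6 to 53 for dexamethasone in H9 and from 3 to 59 in H1, and stayed at 0 for the difference of effects. Whether equal culture numbers mark shared sources is not stated. Correlations of deviations between dexamethasone and vehicle cultures of equal number were −0.015, 0.113 and 0.012 in H9 and 0.179, 0.0996 and 0.0498 in H1. Between unequal numbers they ran from −0.134 to 0.084 in H9 and from −0.178 to 0.073 in H1. So few pairs per line cannot decide the question. The replicate block gave 8238 calls between lines with vehicle and 7734 with dexamethasone. It gave 9 for dexamethasone in H9, 5 in H1 and 0 for the difference of effects, and changed no call of a member. A sister-culture design of 3 against 3 limits what small dexamethasone changes can be seen, and genes listed at 0 cannot be judged. MAML1, PSENEN and the neuron marker TUBB3 held only 8, 26 and 125 reads in all. Whether such low counts share the unknown cause of the zeros was not tested.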
